A study of Mus musculus with 12 samples.

Results

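The genes described here are 8 epithelial defence genes of mouse intestine: Duox2, Duoxa2, Nos2, Lcn2, Saa1, Saa2, Saa3 and Nox1. They were taken by name from a table of 47643 genes, and all 8 passed the filter on low counts that left 17602 genes for testing. Male C57BL/6 mice aged 7 to 8 weeks were on their diet for 10 days. Bulk RNA-seq was made from total RNA of intestine in 4 groups of 3 libraries: PparaΔIE on a high-fat diet (KO HFD), Pparafl/fl on the same diet (WT HFD), PparaΔIE on chow (KO chow) and Pparafl/fl on chow (WT chow). The high-fat diet is given as 60% HFD. PparaΔIE is the usual notation for loss in intestinal epithelial cells of the fatty acid receptor gene Ppara, and Pparafl/fl carries Ppara alleles flanked by recombinase sites. The titles call these genotypes KO and WT, so the WT animals are floxed and not unmodified mice. The labels name neither the recombinase line nor the stretch of intestine. Whether each library came from its own mouse is not stated either, and a p-value here reflects the spread among libraries, part or all of which may be technical.

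DUOX2 is an oxidase of the apical membrane of epithelial cells that releases hydrogen peroxide, and DUOXA2 is the maturation factor that brings it to the surface. NOX1 makes superoxide with the partner proteins NOXO1, NOXA1 and CYBA, NOS2 is the inducible nitric oxide synthase, LCN2 binds bacterial siderophores and so withholds iron, and the serum amyloid A proteins (SAA1, SAA2 and SAA3) are acute-phase apolipoproteins that also bind retinol. In the gut these genes are known to respond to microbes that touch the epithelium, and to the cytokines IL-22 and IL-17.

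Duox2 (chr2:122279247-122298449, minus strand, mm10) and Duoxa2 (chr2:122298900-122302885, plus strand) lie head to head, with 450 bases between the annotated genes. Saa3 (chr7:46711998-46715700, minus), Saa1 (chr7:46740497-46742980, minus) and Saa2 (chr7:46751790-46754313, plus) lie side by side, and Saa1 and Saa2 are 8809 bases apart and point away from each other. Nos2 lies at chr11:78920787-78960254 (plus), Lcn2 at chr2:32384633-32388252 (minus) and Nox1 at chrX:134086421-134221956 (minus). Promoter windows, 250 bases before to 50 after the start site, were available from RefSeq (GRCm38.p6) for 7 of the 8 genes. The windows of both neighbour pairs and of Saa3 are shown because these genes lie next to each other and passed the test between diets in WT, and capitals mark a match to the C/EBP motif TTNNGCAA on either strand. Each is written from 5′ to 3′ on the strand of its gene.

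Duox2 (chr2:122298178-122298477): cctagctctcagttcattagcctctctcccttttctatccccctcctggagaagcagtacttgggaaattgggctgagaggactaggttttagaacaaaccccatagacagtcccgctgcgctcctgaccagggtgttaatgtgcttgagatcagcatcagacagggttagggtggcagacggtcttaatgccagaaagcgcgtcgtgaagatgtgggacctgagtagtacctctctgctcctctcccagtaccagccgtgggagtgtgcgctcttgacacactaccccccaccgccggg
Duoxa2 (chr2:122298650-122298949): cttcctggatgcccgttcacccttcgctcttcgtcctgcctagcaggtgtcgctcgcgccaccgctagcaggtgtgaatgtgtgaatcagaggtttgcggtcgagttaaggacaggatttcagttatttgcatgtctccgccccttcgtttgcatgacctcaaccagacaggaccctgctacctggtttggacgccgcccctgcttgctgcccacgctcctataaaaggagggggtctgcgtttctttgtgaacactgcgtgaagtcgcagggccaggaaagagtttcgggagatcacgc
Saa1 (chr7:46742931-46743230): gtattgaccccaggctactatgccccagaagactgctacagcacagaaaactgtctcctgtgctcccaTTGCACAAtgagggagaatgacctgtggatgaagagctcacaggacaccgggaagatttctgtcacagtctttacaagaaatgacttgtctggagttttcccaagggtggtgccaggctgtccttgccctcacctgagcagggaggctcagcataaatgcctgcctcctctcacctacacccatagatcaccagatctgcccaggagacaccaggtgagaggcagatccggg
Saa2 (chr7:46751583-46751882): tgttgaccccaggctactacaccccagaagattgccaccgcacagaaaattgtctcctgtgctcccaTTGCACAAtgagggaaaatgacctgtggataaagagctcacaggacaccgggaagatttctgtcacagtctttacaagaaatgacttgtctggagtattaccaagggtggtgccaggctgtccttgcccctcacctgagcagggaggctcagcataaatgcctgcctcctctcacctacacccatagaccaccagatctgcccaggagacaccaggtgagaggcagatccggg
Saa3 (chr7:46715627-46715926): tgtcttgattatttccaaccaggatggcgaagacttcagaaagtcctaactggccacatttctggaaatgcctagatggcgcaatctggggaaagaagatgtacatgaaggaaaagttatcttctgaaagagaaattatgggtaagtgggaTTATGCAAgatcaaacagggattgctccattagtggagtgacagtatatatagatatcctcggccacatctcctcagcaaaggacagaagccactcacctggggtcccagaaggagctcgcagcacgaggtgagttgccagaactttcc

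The Saa1 and Saa2 windows were 95.3% identical (287 of 301 alignment columns), and the same 8 letters, TTGCACAA, stood at the C/EBP match of both. Saa3 was 54.2% identical to Saa1 over its window and had its match, TTATGCAA, closer to the start site, 95 bases before it against 178 in Saa1 and 179 in Saa2. The Lcn2 window held a C/EBP match too (TTGCTCAA), while the Duox2, Duoxa2 and Nox1 windows held none. The RefSeq start sites used for Duox2, Lcn2 and Nox1 lie well inside the annotated spans of these genes. Sequence around their outermost annotated starts was not searched in full. Of 27025 promoter windows, 10.8% held that motif. An NF-kB motif was found in the Nox1 window (GGAAAACCCC), against 4.35% of all windows. None of the 7 windows held the STAT motif TTCNNNGAA (8.47% of all windows) or a PPAR motif of 2 AGGNCA half-sites with 1 base between them (0.381%), on either strand. These matches describe letters in the windows, not binding.

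Ppara, the targeted gene, ran from 11.1 to 17.3 CPM (read counts scaled to library size) in KO HFD, 33.7 to 39.3 CPM in WT HFD, 8.42 to 15.6 CPM in KO chow and 18.1 to 22 CPM in WT chow, so KO libraries lay below WT libraries on each diet. The difference passed the test on HFD (log2 fold change -1.46, adjusted p = 0.031) and not on chow (-0.68, adjusted p = 0.25). Library totals ran from 33621040 to 53959405 expected counts, and 1 CPM stood for 32.7 to 52.8 counts. All 7 epithelial markers (among them Epcam, Vil1 and Cdh1) were measured in every library, with summed levels of 11500 to 13600 CPM in KO HFD, 12700 to 14300 CPM in WT HFD, 13400 to 16600 CPM in KO chow and 16400 to 16700 CPM in WT chow. Of 9 neutrophil genes, Elane was at 0 in every library, 7 were at 0 in some, and the sum did not exceed 1.44 CPM in any library. In bulk tissue, fewer cells of a type and less RNA per cell cannot be told apart.

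The level of each gene differed far more between genes than between groups. Scaled by transcript length, Saa1 stood highest in WT chow at 830 ± 178 CPM per kilobase (SD, n = 3). Duox2 (131 ± 7.55), Nos2 (127 ± 3) and Duoxa2 (121 ± 3.4 CPM per kilobase) followed close together, and Duox2 and Nos2 did not differ beyond their spread. Saa3 (3.37 ± 0.106), Saa2 (1.99 ± 0.561), Nox1 (0.939 ± 0.0967) and Lcn2 (0.694 ± 0.204 CPM per kilobase) were far lower, and the last pair did not differ by more than their SDs summed. Saa1 was also highest per length, and Saa3 ranked next after the 4 abundant genes, in KO HFD (310 ± 102 and 1.45 ± 0.94), WT HFD (194 ± 87.4 and 0.78 ± 0.122) and KO chow (939 ± 489 and 4.96 ± 2.82 CPM per kilobase). Together the 8 genes took 0.0697% to 0.274% of a library's counts.

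**Figure D1:**
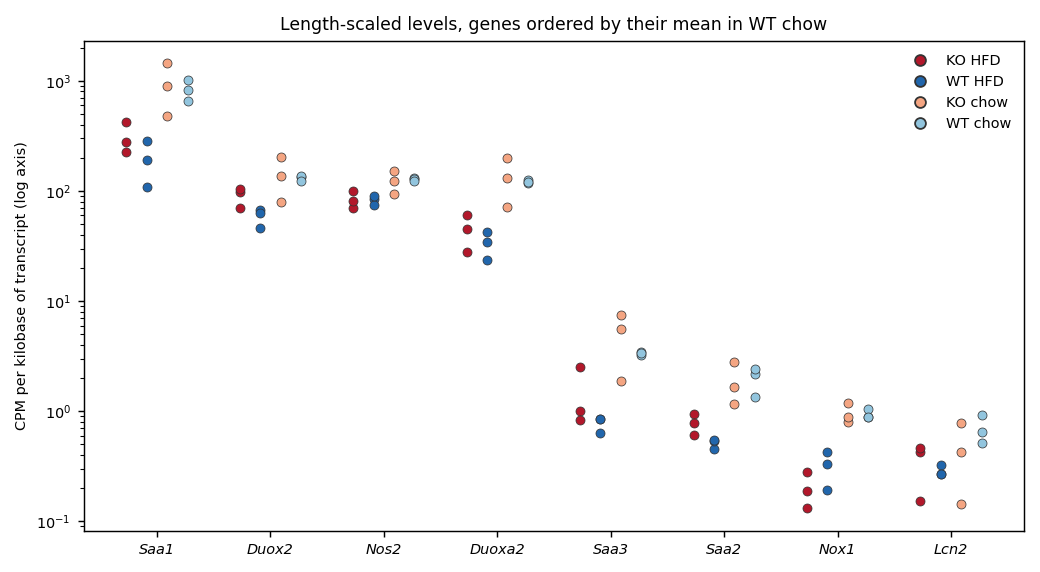
Level of each gene per kilobase of transcript (CPM per kilobase, log axis) in the 12 libraries; each point is 1 library, coloured by group, and genes are ordered by their mean in WT chow. Saa1, Duox2, Nos2 and Duoxa2 stand far above Saa3, Saa2, Nox1 and Lcn2.

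Duox2, the hydrogen peroxide oxidase, measured 563, 595 and 398 CPM in the KO HFD libraries, 263, 388 and 361 CPM in WT HFD, 1170, 457 and 781 CPM in KO chow and 764, 792 and 707 CPM in WT chow. The 3 WT chow libraries lay close together and above all HFD libraries, whereas KO chow spread over a wide range whose lowest library fell among those of KO HFD. Every KO HFD library lay above every WT HFD library. Its maturation factor Duoxa2 measured 95.5, 71.7 and 44.6 CPM in KO HFD, 37.5, 67 and 54.7 CPM in WT HFD, 320, 114 and 211 CPM in KO chow and 199, 188 and 190 CPM in WT chow. All 6 chow libraries lay above all 6 HFD libraries, and the genotypes overlapped on both diets.

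Saa1, the abundant acute-phase gene, measured 138, 258 and 171 CPM in KO HFD, 65.6, 117 and 172 CPM in WT HFD, 882, 289 and 544 CPM in KO chow and 505, 614 and 398 CPM in WT chow. Again every chow library exceeded every HFD library, and genotypes overlapped on each diet. Its near copy Saa2 was rare at 0.611, 0.506 and 0.397 CPM in KO HFD, 0.298, 0.347 and 0.355 CPM in WT HFD, 1.84, 0.764 and 1.09 CPM in KO chow and 1.41, 1.59 and 0.89 CPM in WT chow. Chow and HFD did not overlap, and all KO HFD libraries lay above all WT HFD libraries, at 12 to 69.01 expected counts per library over all 12. Saa1 held 99.55% to 99.8% of the counts of the pair in every library. Their principal transcripts were 87.3% identical and 8.46% of the 50-base windows of Saa2 also occurred in Saa1, so a small part of the Saa1 reads could be shared out to Saa2, and the level of Saa2 is uncertain. Saa3, which in mice is made largely outside the liver, measured 0.556, 1.41 and 0.459 CPM in KO HFD, 0.472, 0.471 and 0.355 CPM in WT HFD, 4.13, 1.05 and 3.08 CPM in KO chow and 1.8, 1.91 and 1.89 CPM in WT chow. It rested on 13 to 155 counts, and KO HFD replicate 2 stood above KO chow replicate 2.

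Nos2, the inducible nitric oxide synthase, had the narrowest range, at 339, 239 and 280 CPM in KO HFD, 287, 254 and 311 CPM in WT HFD, 523, 322 and 419 CPM in KO chow and 445, 439 and 425 CPM in WT chow. WT chow lay above WT HFD, while the lowest KO chow library lay among those of KO HFD. Nox1, the superoxide oxidase, measured 0.723, 0.478 and 0.336 CPM in KO HFD, 1.09, 0.844 and 0.491 CPM in WT HFD, 3.04, 2.03 and 2.29 CPM in KO chow and 2.26, 2.69 and 2.27 CPM in WT chow. All chow libraries lay above all HFD libraries. The annotated span of Nox1 overlaps Cstf2 on the other strand, which had 15654 counts over all libraries against 729 for Nox1. It also overlaps Xkrx on the same strand (152 counts) and Arl13a on the other strand (21 counts). Whether exons overlap was not checked. Where they do, with the strand setting unknown, some reads may have been counted for the wrong gene. Duoxa2 likewise overlaps Duoxa1 on the other strand, but there Duoxa2 held 62233 counts against 1090. Lcn2, the siderophore-binding lipocalin, was barely detected, with 14, 5 and 14 counts in KO HFD (0.389, 0.141 and 0.428 CPM), 10, 12 and 9 counts in WT HFD (0.249, 0.298 and 0.245 CPM), 27, 5 and 13 counts in KO chow (0.72, 0.132 and 0.392 CPM) and 26, 29 and 25 counts in WT chow (0.593, 0.84 and 0.473 CPM). The diets did not overlap in WT and overlapped in KO.

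**Figure D2:**
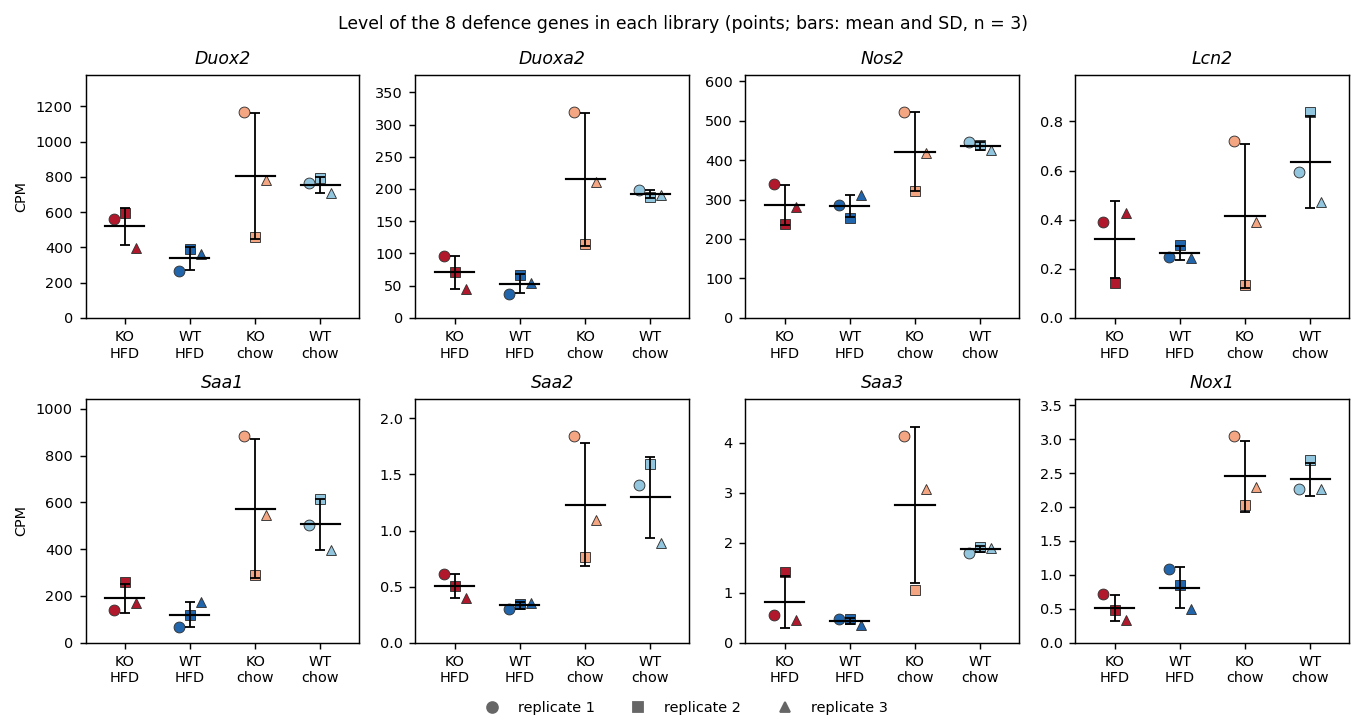
Level in CPM (vertical axis, from 0) of each of the 8 genes in the 12 libraries; marker shapes give the replicate number, and bars give the mean and SD of 3 libraries. HFD groups lie below chow groups in most panels, and KO chow replicate 1 is the highest and replicate 2 the lowest KO chow library in all 8.

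In KO chow, replicate 1 was the highest and replicate 2 the lowest library for all 8 genes, with replicate 3 between them. The ratio of highest to lowest ran from 1.5 for Nox1 to 5.46 for Lcn2. In WT chow it was at most 1.79 (Saa2). Some markers of intestinal segment also differed among the KO chow libraries. Lct, the lactase gene of proximal intestine, measured 0.453, 102 and 57.6 CPM in KO chow 1, 2 and 3, and Fgf15, an ileal bile acid response gene, 15.1, 109 and 69.3 CPM. In the lists of proximal and distal ileal markers (6 genes each), Cyp2b10 (0.24 to 8.06 CPM) and Cubn (1060 to 2160 CPM) varied too. Mgam (4590 to 5360 CPM), Fabp6 (3070 to 3350 CPM) and Slc51a (918 to 933 CPM) lay closer together in KO chow. The part of the sampled segment in the spread of the 8 genes was not tested.

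With Ppara intact, the high-fat diet went with lower levels of nearly the whole group. In WT HFD against WT chow, 7 of the 8 genes fell, by edgeR's quasi-likelihood test with adjusted p under 0.05 over all genes tested, and 6.57% of all 17602 genes were called lower (6.8% higher). Saa1 fell 4.28-fold to 118 ± 53.3 CPM in WT HFD, against 506 ± 108 CPM in WT chow (SD, n = 3 each; log2 fold change -2.10, SE 0.49, adjusted p = 0.026). Saa3 fell 4.28-fold (-2.10, SE 0.50, adjusted p = 0.018) and Saa2 3.84-fold (-1.94, SE 0.35, adjusted p = 0.004). Duoxa2 fell to 53.1 ± 14.8 CPM in WT HFD, against 192 ± 5.41 CPM in WT chow (-1.86, SE 0.41, adjusted p = 0.02). Duox2 fell 2.23-fold to 338 ± 65.7 CPM, against 754 ± 43.4 CPM (-1.16, SE 0.30, adjusted p = 0.033). Nox1 fell 2.95-fold (-1.56, SE 0.29, adjusted p = 0.004), and Nos2 showed the smallest fall, 1.54-fold (-0.62, SE 0.16, adjusted p = 0.022).

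Lcn2 did not pass the test at -1.24 (SE 0.50, adjusted p = 0.12). For all 8 genes every WT HFD library lay below every WT chow library, which held for 18.6% of all genes. The median log2 fold change of the 8 was -1.71, against 0.01 over all genes. The direction of all 8 was the same in each of 12 fits that left out a library, and Saa2 and Nox1 were called in all 12. Both rest on few counts per library, 12 to 69.01 for Saa2 and 11.37 to 119.87 for Nox1. Some Saa2 counts could also come from Saa1 reads. The count called was 2 without WT chow replicate 1 or 3, 3 without WT chow replicate 2 or WT HFD replicate 1 or 2, 4 without WT HFD replicate 3, and 2 without WT chow replicate 1 and KO chow replicate 3 together, a pair left out because an earlier analysis of these data placed their levels between others of their group. Of the fits that left out 1 library, Duox2 was called in 5, Duoxa2, Nos2 and Saa1 in 7 each and Saa3 in 8. Lct also rose (log2 fold change 6.15, adjusted p = 0.028) in the same comparison, at 256, 160 and 76.2 CPM in WT HFD against 2.24, 2.75 and 2.01 CPM in WT chow, as did Fgf15 (2.79, adjusted p = 0.024). Lct and Fgf15 were each called in 7 of the 12 fits. Of 5 tested markers of proximal small intestine (of 6), 1 rose (Lct) and 4 did not pass, with a median log2 fold change of 1.24. Of 6 distal ileum markers, 2 rose (Cubn and Fgf15) and 4 did not pass, with a median of 0.02. Over all genes 6.8% were called higher. The part of the sampled segment in these differences was not tested.

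In mice without epithelial Ppara the same diet comparison gave the same sign for all 8 genes, and 5 fell (adjusted p under 0.05), where 4.76% of all genes were called lower (3.44% higher). Nox1 fell most, to 0.512 ± 0.195 CPM in KO HFD, against 2.45 ± 0.524 CPM in KO chow (SD, n = 3 each; log2 fold change -2.24, SE 0.31, adjusted p = 0.0013). Saa3 fell by 1.76 on the log2 scale (SE 0.46, adjusted p = 0.037), although its groups overlapped, and Saa2 by 1.28 (SE 0.34, adjusted p = 0.035). Duoxa2 fell to 70.6 ± 25.5 CPM in KO HFD, against 215 ± 103 CPM in KO chow (-1.60, SE 0.40, adjusted p = 0.045). Nos2 fell to 286 ± 50.5 CPM in KO HFD, against 422 ± 100 CPM in KO chow, with overlapping libraries (-0.56, SE 0.16, adjusted p = 0.046).

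Saa1 missed the threshold in KO at -1.60 (SE 0.48, adjusted p = 0.079), although its libraries did not overlap (189 ± 62 CPM in KO HFD, against 572 ± 298 CPM in KO chow). Duox2 averaged 518 ± 106 CPM in KO HFD and 804 ± 359 CPM in KO chow (-0.63, SE 0.30, adjusted p = 0.22), and Lcn2 stood at -0.38 (SE 0.53, adjusted p = 0.71). The libraries of 4 of the 8 genes (Duoxa2, Saa1, Saa2 and Nox1) were lower in KO HFD with no overlap, as were 13.1% of all genes. The median over the 8 was -1.44, against 0.01 over all genes. Nox1 was called in all 12 fits that left out a library, Saa2 in 7, Saa3 in 3, and Duoxa2 and Nos2 in 2 each. The count called was 1 without KO chow replicate 1 or 3 or KO HFD replicate 3, and 2 without any single WT chow library, WT HFD replicate 2 or 3 or KO HFD replicate 1 or 2. It was also 1 with only the KO groups fitted and 1 without the pair of chow libraries named above, 2 without the filter and 3 with the replicate number as a block. Lcn2 turned to 0.28 without KO chow replicate 1.

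**Figure D3:**
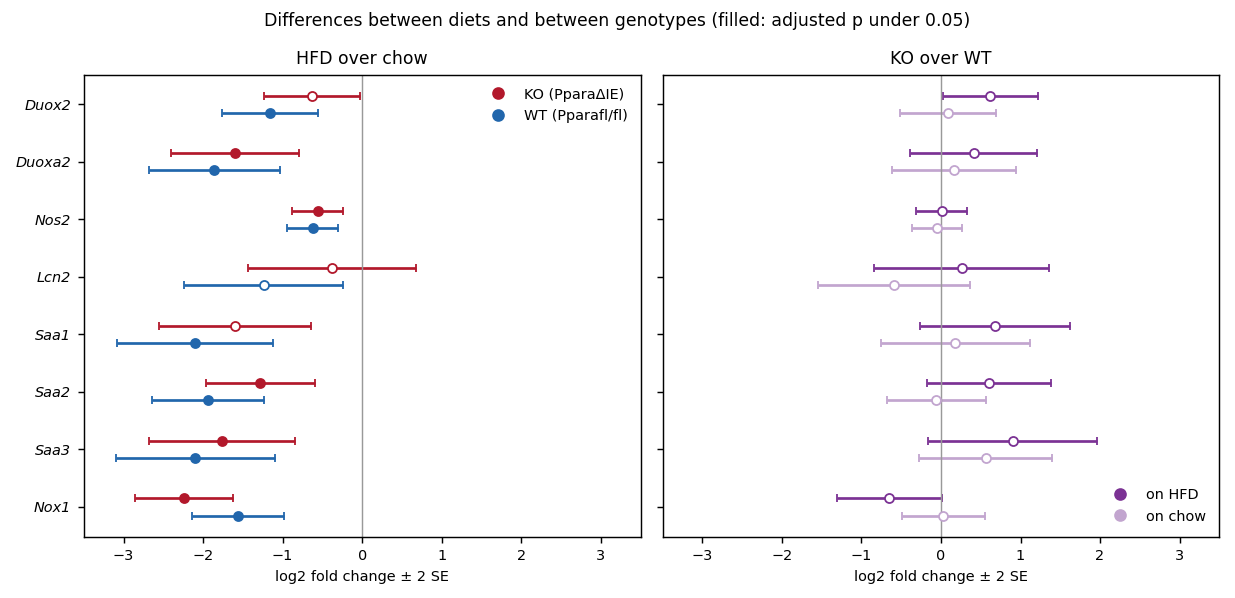
Log2 fold change with 2 SE on each side for the 8 genes, HFD over chow on the left (KO and WT) and KO over WT on the right (on HFD and on chow); filled points passed an adjusted p of 0.05. All 16 diet differences lie below 0, 7 filled in WT and 5 in KO, and no point of the genotype panel is filled.

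Loss of epithelial Ppara on the high-fat diet moved none of the 8 genes past the test. In KO HFD against WT HFD, 0 of 8 were called by edgeR's quasi-likelihood test (0 with unadjusted p under 0.05, and 0 by DESeq2), where 0.29% of all genes were called in either direction. Duox2 averaged 518 ± 106 CPM in KO HFD and 338 ± 65.7 CPM in WT HFD (SD, n = 3 each; log2 fold change 0.62, interval of 2 SE from 0.02 to 1.22, adjusted p = 0.42). Saa1 averaged 189 ± 62 CPM in KO HFD and 118 ± 53.3 CPM in WT HFD (0.68, interval -0.26 to 1.62, adjusted p = 0.59). Saa3 had 0.90 (interval -0.17 to 1.96), Saa2 0.60 (-0.18 to 1.38), Duoxa2 0.41 (-0.38 to 1.21) and Lcn2 0.26 (-0.84 to 1.37). Nox1 had the only negative value, at -0.65 (-1.31 to 0, adjusted p = 0.42).

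Nos2 was nearly level between the genotypes on HFD, at 286 ± 50.5 CPM in KO HFD and 284 ± 28.4 CPM in WT HFD (interval -0.30 to 0.33). That interval reflects the spread among these libraries, part or all of which may be technical, and does not bound a difference between animals. For the other 7 genes the intervals leave room for differences of 2-fold or more in at least 1 direction. Duox2 and Saa2 were higher in KO HFD with no overlap between libraries, which held for 9.27% of all genes. The summed level of 8 smooth muscle markers was 81.2 to 108 CPM in KO HFD and 27.1 to 63.3 CPM in WT HFD. Log2 fold changes of all 8 were positive (0.63 to 1.44) with unadjusted p under 0.05, and 1 passed the test (Synm, 1.23, adjusted p = 0.038), called in 4 of the 12 fits that left out a library. Paneth cell markers summed to 2460 to 2520 CPM in KO HFD and 3080 to 4590 CPM in WT HFD. All 7 tested (of 8) had negative log2 fold changes (median -0.72) and 3 fell, Lyz1, Defa22 and Defa21, called in 4, 4 and 1 of those fits. Their part in these values was not tested.

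On chow the genotypes were close on average but KO varied more. In KO chow against WT chow, 0 of 8 were called (0 with unadjusted p under 0.05 and 0 by DESeq2), where 0.125% of all genes were called in either direction. Duox2 averaged 804 ± 359 CPM in KO chow and 754 ± 43.4 CPM in WT chow (SD, n = 3 each; log2 fold change 0.09, interval -0.50 to 0.69). Saa1 averaged 572 ± 298 CPM in KO chow and 506 ± 108 CPM in WT chow (0.18, interval -0.76 to 1.11), and Nos2 422 ± 100 CPM in KO chow and 436 ± 10.3 CPM in WT chow (-0.05, interval -0.36 to 0.27). Duoxa2 (0.16), Nox1 (0.03) and Saa2 (-0.06) were near 0 as well. Saa3 had 0.56 (interval -0.29 to 1.41) and Lcn2 -0.59 (-1.56 to 0.37). Without KO chow replicate 1 the values of Duox2, Duoxa2, Saa1 and Nox1 turned to -0.28, -0.24, -0.27 and -0.15.

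The test of whether the diet difference itself depended on genotype called 0 of 8 genes (0 with unadjusted p under 0.05 and 0 by DESeq2), and 0.00568% of all genes. The difference between the diet effects, KO minus WT on the log2 scale, was 0.53 for Duox2 (interval -0.32 to 1.37), 0.50 for Saa1 (-0.82 to 1.83), 0.25 for Duoxa2 (-0.86 to 1.37) and 0.06 for Nos2 (-0.38 to 0.50). It was 0.67 for Saa2 (-0.33 to 1.66), 0.34 for Saa3 (-1.02 to 1.69), 0.86 for Lcn2 (-0.61 to 2.32) and -0.69 for Nox1 (-1.53 to 0.16). The fall of Duox2 and Saa1 that passed in WT and not in KO was therefore not shown to differ between the genotypes.

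Partners of the oxidases followed the diet in part. Noxa1 and Noxo1, the activator and organizer of NOX1, fell in both genotypes. Noxa1 measured 11, 9.82 and 7.95 CPM in KO HFD, 10.1, 9.83 and 8.13 CPM in WT HFD, 21.5, 15.4 and 16.7 CPM in KO chow and 19.2, 20.1 and 18.4 CPM in WT chow. Its log2 fold change with the diet was -0.89 in KO (SE 0.14, adjusted p = 0.0025) and -1.04 in WT (SE 0.14, adjusted p = 0.00053). Noxo1 fell by 0.57 in KO and by 0.56 in WT. All 12 libraries kept the diets apart for both genes, as for Nox1 itself. Duoxa1, the maturation factor of the related oxidase DUOX1, fell by 1.21 in KO and by 1.27 in WT, called in 8 and 10 of the 12 fits that left out a library, and its span overlaps that of Duoxa2. Duox1 was rare, at 0.174 to 0.88 CPM, and was not called.

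Of the 13 oxidase partners tested (of 16), 4 fell in WT HFD, Noxa1, Noxo1 and Duoxa1 among them, and 9 did not pass. Their median log2 fold change was -0.41, and 6.57% of all genes were called lower. In KO HFD, where 4.76% of all genes were called lower, 3 fell and 10 did not pass, with a median of -0.05. Over the 12 fits that left out a library, the count that fell ran from 2 to 5 in KO (5 without KO chow replicate 2) and from 3 to 6 in WT. Nox3 had no counts. Cyba, the membrane partner of NOX1, was not called in either diet comparison. In edgeR's test its log2 fold change was -0.33 in WT HFD against WT chow (adjusted p = 0.077). In KO it measured 35 to 41.5 CPM on HFD and 41.6 to 57.8 CPM on chow. Between genotypes, KO over WT, it stood at -0.53 on HFD (adjusted p = 0.093) and at -0.53 on chow (adjusted p = 0.13), not called either. Of 8 genes of nitric oxide and arginine handling, Gch1, which makes the cofactor that NOS2 needs, fell in both genotypes. It measured 16.3, 17.3 and 16.5 CPM in KO HFD, 17.5, 20.5 and 16.7 CPM in WT HFD, 38.1, 25.7 and 31.6 CPM in KO chow and 32.3, 35 and 29 CPM in WT chow (log2 fold change -0.93 in KO, adjusted p = 0.0013, and -0.81 in WT, adjusted p = 0.0015). The argininosuccinate lyase gene Asl fell by 0.30 in each genotype. Arg2, a mitochondrial arginase that uses the same substrate as NOS2, rose by 0.82 in KO and by 1.10 in WT (adjusted p = 0.03 and 0.006). Asl was called in 5 of 12 fits that left out a library in KO and in 7 in WT, and Arg2 was lost in KO without KO chow replicate 1 or 3.

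Of the cytokines that induce these genes, 6 were at or near the limit of detection. Il22 had 0 to 4 counts in KO HFD, 0 to 11 in WT HFD, 1 to 4 in KO chow and 3 to 11 in WT chow, and Il17a had 0 to 4 counts in KO HFD, 0 to 6 in WT HFD, 3 to 7 in KO chow and 1 to 8 in WT chow. Il17f, Il23a, Il6 and Ifng failed the filter as well, and Il6 had at most 1 count in a library. Il1b (6 to 47 counts), Tnf (24 to 71) and Il18 (288 to 608) passed the filter, and none was called in any comparison. Il1b measured 0.673 to 0.973 CPM in KO HFD and 0.164 to 0.645 CPM in WT HFD, with no overlap, as for 9.27% of all genes (log2 fold change 1.01, unadjusted p = 0.017, adjusted p = 0.28). Of the 26 cytokine, receptor and signalling genes tested (of 32), 3 fell and 2 rose in WT HFD, where 6.57% of all genes were called lower and 6.8% higher, and the list's counts are not read as a response of the list. Among those that fell were the interferon response factor gene Irf1 (-1.12, adjusted p = 0.0043) and Nfkbiz (-0.82, adjusted p = 0.0002), which encodes an NF-kB cofactor of IL-17 responses. Il6st, the shared receptor chain of the IL-6 family, rose by 0.36 (adjusted p = 0.019) and Il6ra by 0.74 (adjusted p = 0.049). In KO HFD 4 fell and 2 rose, where the shares over all genes were 4.76% and 3.44%. Irf1 (-0.86), Nfkbia (-0.51) and Nfkbiz (-0.30) were among those that fell, while Il6st rose by 0.40 and Il22ra2, which encodes the soluble antagonist of IL-22, by 1.31 (adjusted p = 0.03; called in 6 of the 12 fits). The median over the 26 genes was -0.09 in each genotype. The 2 rises in WT fell to 0 without any single WT chow library or WT HFD replicate 1 or 3, and to 1 without WT HFD replicate 2, KO HFD replicate 1 or 3 or KO chow replicate 3. In KO the count that fell was 1 without KO chow replicate 1 or 3 or KO HFD replicate 2 and 2 without WT chow replicate 2 or 3, and the count that rose was 0 without KO chow replicate 3 or KO HFD replicate 1 and 1 without WT chow replicate 1, KO chow replicate 1 or KO HFD replicate 2. The STAT3 and C/EBP genes Stat3, Cebpb and Cebpd were not called in either genotype. In WT HFD against WT chow Cebpd stood at -1.02 (SE 0.32, edgeR adjusted p = 0.063), Stat3 at -0.06 and Cebpb at -0.03. Cebpd measured 6.11 to 16.2 CPM in KO HFD and 12.2 to 14.3 CPM in KO chow.

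**Figure D4:**
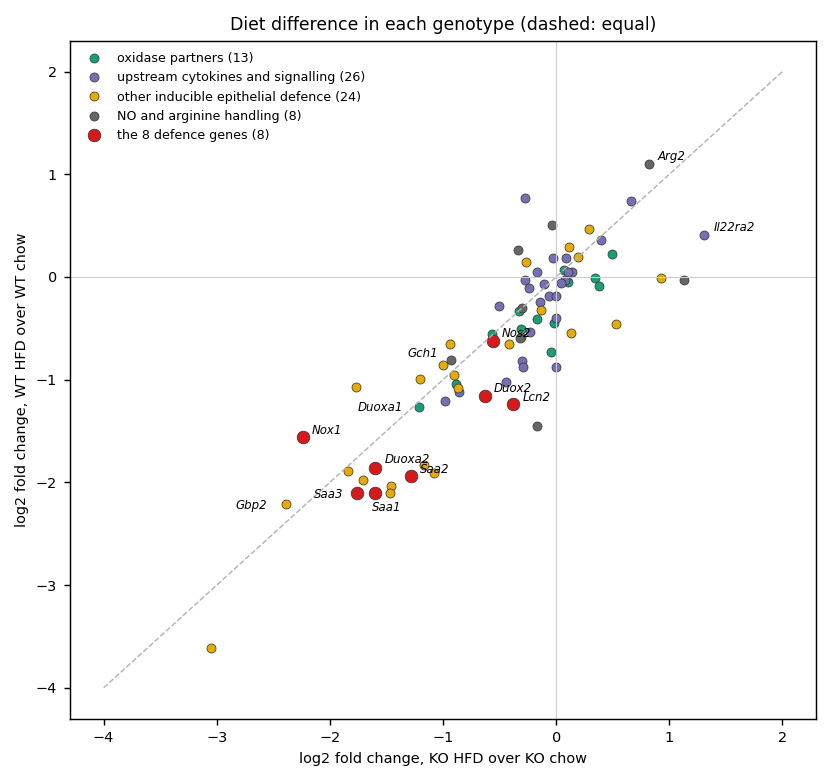
Log2 fold change of HFD over chow in KO (horizontal axis) against WT (vertical axis) for the 8 genes and for the tested genes of the oxidase, signalling, defence and nitric oxide lists; each point is 1 gene and the dashed line marks equal values. The 8 genes lie in the lower left, among defence genes such as Gbp2, and Arg2 and Il22ra2 lie to the upper right.

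Other inducible defence genes of the epithelium fell with the diet more often than they rose. Of 24 tested (of 30), 11 fell and 1 rose (Itln1) in WT HFD, with a median log2 fold change of -0.91 against 0.01 over all genes. In KO HFD 11 fell and 13 did not pass, with a median of -0.92. Over all genes 6.57% were called lower and 6.8% higher in WT HFD, and 4.76% lower and 3.44% higher in KO HFD. Reg3b, an antibacterial lectin, measured 6870, 12200 and 7200 CPM in KO HFD, 6140, 6180 and 6270 CPM in WT HFD, 34700, 14300 and 23300 CPM in KO chow and 25300, 27500 and 23600 CPM in WT chow. Like the 8 genes it was highest in KO chow replicate 1 and lowest in KO chow replicate 2 within that group. In WT, Reg3g (-2.10), Reg3b (-2.04), the scavenger receptor gene Dmbt1 (-1.83) and Lypd8, which keeps flagellated bacteria off the epithelium (-1.08), had the smallest p in the list with adjusted p from 0.00042 to 0.0035. In KO these were Gbp2 (-2.39), an interferon-induced GTPase, the chemokine gene Cxcl9 (-1.20), Casp4 (-0.90), which senses bacterial lipopolysaccharide inside cells, and Lypd8 (-0.87).

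The lower count in KO was 6 without KO HFD replicate 1, 7 without KO HFD replicate 3 or KO chow replicate 3, and 5 with only the KO groups fitted. The genes named here, Itln1 apart, were called in all 12 fits that left out a library in the genotype for which they are given. The single rise in WT was lost without WT chow replicate 1 or 3 or WT HFD replicate 2, and 2 rose without WT HFD replicate 3. The neutrophil chemoattractant genes Cxcl1, Cxcl2 and Cxcl5 and the calprotectin genes S100a8 and S100a9 failed the filter, with 0 to 4 counts per library for S100a8. Of the 71 tested genes of the oxidase, signalling, defence and nitric oxide lists, edgeR called 0 between genotypes on either diet or for the interaction. Those with unadjusted p under 0.05 numbered 7 in KO HFD against WT HFD, 6 in KO chow against WT chow and 3 for the interaction, and DESeq2 called 2, 1 and 0. With 1 library left out, edgeR called at most 1 oxidase, 1 signalling and 2 defence genes lower in KO HFD against WT HFD. Without KO chow replicate 1, it called 1 oxidase gene lower in KO chow against WT chow, and 1 signalling gene in each direction.

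**Figure D5:**
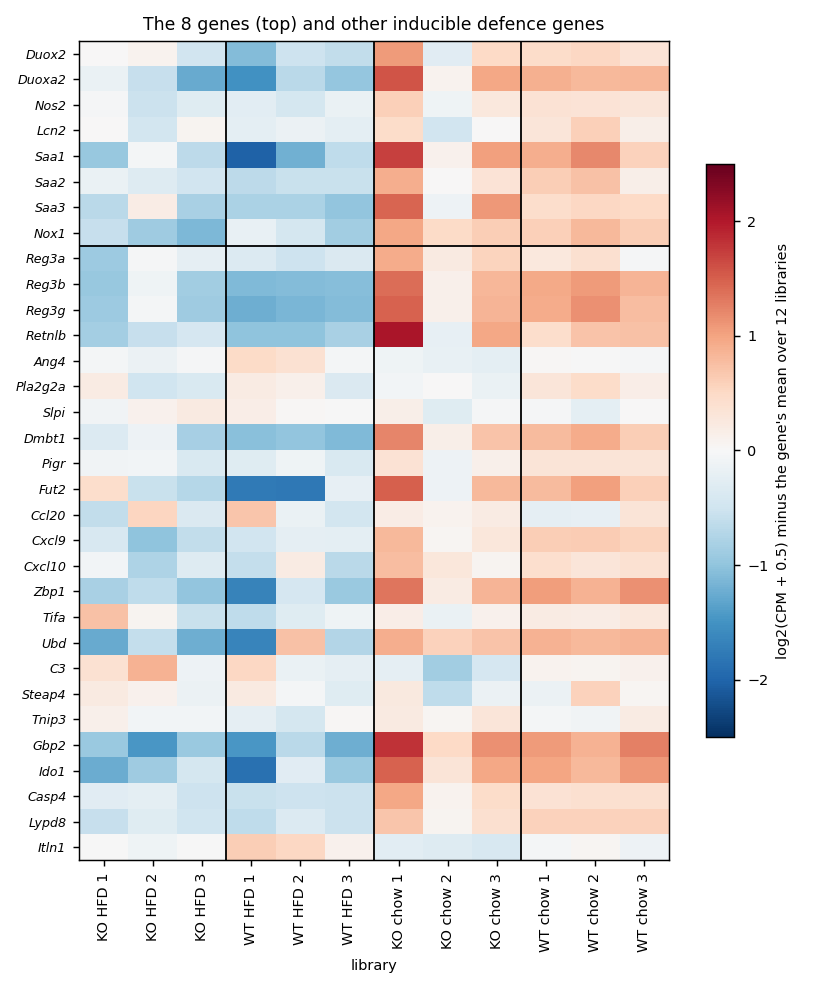
Log2(CPM + 0.5) of the 8 genes (top) and of 24 other inducible defence genes, each minus its mean over the 12 libraries, with libraries grouped as KO HFD, WT HFD, KO chow and WT chow. Most rows are below their mean (blue) in HFD libraries and above it (red) in chow libraries, and KO chow replicate 2 is paler than KO chow replicate 1.

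For the marker counts given here, the shares over all genes were 4.76% lower and 3.44% higher in KO HFD. In WT HFD they were 6.57% lower and 6.8% higher. Of 6 tested colon markers (of 8), 4 fell and 2 did not pass in KO HFD (median log2 fold change -1.35), and 4 fell and 1 rose in WT HFD (median -1.28). Retnlb, Car1, Aqp4 and Car4 fell in both genotypes, by 3.05, 5.04, 1.54 and 1.15 in KO and by 3.61, 3.05, 1.22 and 1.35 in WT on the log2 scale. Car4 was called in 1 of the 12 fits that left out a library in KO and in 7 in WT. Car1 rested on 0 to 2 counts in KO HFD and 1 to 2 in WT HFD, against 13 to 46 in KO chow and 9 to 21 in WT chow, so the size of its fall is uncertain. Slc26a3 rose by 0.31 in WT (adjusted p = 0.016, called in 7 of those fits) and stood at 0.12 in KO. Retnlb, also a member of the defence list, measured 0.139 to 0.367 CPM in KO HFD, 0.0744 to 0.164 CPM in WT HFD, 0.5 to 4.26 CPM in KO chow and 1.07 to 1.42 CPM in WT chow. Macrophage markers summed to 95.3 to 151 CPM in KO HFD, 114 to 142 CPM in WT HFD, 92.2 to 130 CPM in KO chow and 127 to 133 CPM in WT chow, and edgeR called 0 of 9 in either diet comparison (0 in KO and 4 in WT with unadjusted p under 0.05, and 0 in KO and 1 in WT by DESeq2). Adipocyte markers, whose cells are another source of Saa3, summed to 27.8 to 41.2 CPM in KO HFD, 34 to 54.3 CPM in WT HFD, 19.5 to 22.3 CPM in KO chow and 12.6 to 19.8 CPM in WT chow. Most of that sum was Cidec, a lipid droplet gene, at 27.4 to 39.1 CPM in KO HFD, 32 to 53.6 CPM in WT HFD, 16.7 to 20.0 CPM in KO chow and 11.8 to 16.5 CPM in WT chow. It rose with the diet by 0.82 in KO and by 1.49 in WT on the log2 scale, and was called in KO in 6 of the 12 fits that left out a library. The other 3 tested adipocyte markers, Adipoq, Plin1 and Cfd, had negative values in both genotypes (-1.20, -1.55 and -1.04 in KO, -1.63, -0.70 and -0.89 in WT) and did not pass. Of 7 epithelial markers 3 fell in KO (Cdx2, Krt19 and Krt8) and 2 in WT (Krt19 and Krt8). The keratin genes Krt8 and Krt19 fell by 0.42 and 0.43 in KO and by 0.47 and 0.46 in WT. Krt8 was called in 7 of the 12 fits that left out a library in KO and in 9 in WT. Of 7 tested Paneth cell markers 0 were called in KO, and 4 rose and 1 fell in WT. Of 7 goblet cell markers 3 fell in KO and 2 in WT. The part of cell makeup in the differences of the 8 genes was not tested.

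Among themselves the 8 genes varied together over the 12 libraries, which share depth and the diet split, so these values describe the pattern only. Pearson's r of log2(CPM + 0.5) was 0.939 for Duox2 with Duoxa2, 0.93 for Duox2 with Saa1 and 0.929 for Saa1 with Saa2, and the lowest was 0.541 for Lcn2 with Saa3. The ratio of Duox2 to Duoxa2 per transcript length, singled out after its values were seen, was 1.63, 2.3 and 2.47 in KO HFD, 1.95, 1.61 and 1.83 in WT HFD, 1.01, 1.11 and 1.03 in KO chow and 1.07, 1.17 and 1.03 in WT chow. The ratio was thus higher in every HFD library than in any chow library. Its absolute size rests on the length of 1 transcript per gene, and its shift with the diet was not tested.

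The gene most like Duox2 over the 12 libraries was Ly6a (r = 0.978), followed by Gfpt1 (0.974), Il4ra (0.966), Ube2h (0.964) and Tm4sf20 (0.962). For Saa1 these were Lgr4 (0.987), Gml (0.983), Cfi (0.978), Dirc2 (0.977) and Sprr2a2 (0.976). For Nos2 they were Eif4ebp3 (0.964), Avpi1 (0.961), Aldoc (0.957), Serpinb5 (0.955) and Fam162a (0.953). For Nox1 they were Tnfsf13 (0.984), Ceacam10 (0.982), its own organizer gene Noxo1 (0.979), Qsox1 (0.978) and Car8 (0.972).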

How the data were processed

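Gene expression was measured by bulk RNA-seq in 12 libraries of intestine RNA, and a kit that keeps strand was used per the labels' protocols. The deposited values are expected counts per gene, not scaled between libraries. Trimmomatic, STAR, Picard, RSEM and mouse build mm10 are named per the submitters' processing notes, while for the annotation release, the versions and the strand setting of counting the entry is: not given in the sources used here. Reads of similar genes are shared out by RSEM.

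Gene IDs were matched without version suffix to GENCODE vM21, and 47224 of 47643 matched; 18495 genes had no count. Expected counts were rounded and tested with edgeR 4.0.16 (quasi-likelihood, robust fit, TMM, default filterByExpr) in R 4.3.3, with 1 fit of 4 group means over 12 libraries and Benjamini-Hochberg adjustment over 17602 genes at 0.05. CPM used TMM-scaled library sizes, and levels per kilobase used the length of the principal transcript of each gene. Intervals are 2 SE on each side. The step was tested on simulated data.

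Alternatives were DESeq2 1.42.0 (size factors alone, and its own test), omitting the filter, requiring 50 counts in at least 3 libraries, fitting the compared groups alone, a replicate block, each library left out, and WT chow replicate 1 with KO chow replicate 3 left out. Summing Saa1 and Saa2 was chosen after seeing the data. The members and lists were chosen with earlier results of these data known. All 8 members are named in each comparison. Of each list at most 4 called genes with the smallest p were to be named by rule, as are the 5 genes with the highest r for 4 members (mean log2 CPM of at least 1, established symbols). The marker lists are given by counts and selected genes, so fewer are named than the rule allows. Further list genes (Nfkbia, Nfkbiz in KO, Il1b, Tnf, Il18, Adipoq, Plin1, Cfd, Il6ra, Itln1, Cyp2b10, Mgam, Fabp6, Slc51a and those given as not called or at the limit of detection) were named after their values were seen. The values of 2 list genes are not reported here. Motifs were searched in Python 3.11.15 and sequences aligned with Biopython 1.88. Figures were drawn with matplotlib 3.10.9.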

Additional observations from a re-analysis of the deposited data

How the results depend on the processing

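Of 752 values of the 8 genes under other settings, 642 kept direction and side of the threshold, 81 kept direction and lost the call, 4 gained one and 25 changed sign, none of these called. In WT HFD against WT chow the number of the 8 genes called was 2 to 7 over 12 fits that left out a library, and 2 without WT chow replicate 1 and KO chow replicate 3. In KO HFD against KO chow it was 1 to 7, 1 without that pair, 2 without the filter, 1 with only the KO groups fitted and 3 with the replicate number as a block. Between genotypes and for the interaction it was 0 in every setting. Same-numbered libraries had correlations of -0.149 to 0.282 in their deviations from group means. Libraries of unlike number were not compared, and the labels do not say what the numbers stand for. Whether the numbers pair the samples was therefore not tested. Under the block 5 of the 8 genes were called in WT. Saa1 and Saa2 summed gave -1.60 in KO and -2.10 in WT, as Saa1 alone. The cause of these shifts was not tested.

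Genes called in KO HFD against WT HFD numbered 51, against 288 by DESeq2, 94 without the filter, 6 with only these groups, 3 without the pair and 5 to 173 with a library left out. In KO chow against WT chow they were 22, against 186, 49, 54, 1 and 1 to 517, and 14 under the block. In WT HFD against WT chow they were 2353, against 458 without the pair and 895 to 3089. In KO HFD against KO chow they were 1444, against 335 with only these groups, 185 without the pair and 451 to 2551. The interaction gave 1, against 57 by DESeq2, 4 without the filter, 0 with the stricter filter, 0 under the block, 0 without the pair and 0 to 19.

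On the log2 scale, Nos2 in KO HFD against WT HFD turned to -0.01 without the filter and 0 under the block, and Saa2 in KO chow against WT chow to 0.09 without the pair. The other changes of sign came with a library left out. Over these 12 fits, values in KO HFD against WT HFD ran from -0.13 to 0.13 for Nos2 and from -0.01 to 0.62 for Lcn2. In KO chow against WT chow they ran from -0.28 to 0.37 for Duox2, -0.24 to 0.46 for Duoxa2, -0.23 to 0.11 for Nos2, -0.27 to 0.50 for Saa1, -0.48 to 0.19 for Saa2 and -0.15 to 0.15 for Nox1. In KO HFD against KO chow Lcn2 ran from -0.82 to 0.28. Interaction values ran from -0.05 to 0.64 for Duoxa2, -0.10 to 0.23 for Nos2 and -0.33 to 0.75 for Saa3. At 5 to 29 counts a library, depth limits what can be said of Lcn2.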
